A study of Rattus norvegicus with 8 samples.

Results

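Adipose-tissue-derived mesenchymal stem cells (ATSC) placed on liver that had no ischemia-reperfusion injury (non-IRI) were set against ATSC kept in culture (in vitro). The comparison used the 4 arrays titled non-IRI and the 1 titled in vitro, which are 5 of the 8 arrays of the series. The other 3 arrays hold ATSC placed on injured liver (IRI); such injury follows when blood returns to an organ that was cut off from it. Per the labels, every group came from fat under the skin of male Sprague-Dawley rats that was digested with collagenase and grown in serum-containing medium. The labels name no genotype, transgene, sort or gate, no age, and no time on the liver. They do not say how the cells were put on the liver or taken from it, which leaves the make-up of the non-IRI samples to be read from the arrays. They give replicate numbers without saying that replicates are separate animals, so p-values measure the spread between these samples. The question is which transcripts differed between ATSC on a liver without injury and the same kind of cell in a dish.

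Mesenchymal stromal cells are fibroblast-like cells that adhere to plastic, lay down collagen-rich matrix and release growth factors and immune mediators, and they have been tried as a treatment for liver injury. A liver holds hepatocytes, which make most plasma proteins, as well as Kupffer cells (its resident macrophages), sinusoidal endothelium, lymphocytes and an outer mesothelial layer. Cells in a dish see serum, high oxygen, a stiff surface and no neighbours of other types. Sets of genes that mark these cell types, and sets for lipid synthesis, stress, matrix, growth factors and cell division, were therefore read out separately.

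Levels are log2 of an array's processed signal minus the 75th percentile of that array, and differences are non-IRI minus in vitro. Probes had to be well above background (a flag set by the scanner's software) on all 4 non-IRI arrays or else on the array of cultured cells. This left 23743 probes for 20386 genes, 9260 of them with a symbol. Of these genes, 7398 (36.3%) passed limma's test at a Benjamini-Hochberg adjusted p under 0.05, to which every p below refers: 3438 (16.9%) were higher on the non-IRI arrays and 3960 (19.4%) were lower. The in vitro level lay outside the range of the 4 non-IRI arrays for all 7398. The median difference over all genes was -0.29, and the median SD over the non-IRI arrays was 0.292. Of the 3438 higher genes, 1452 were not well above background in vitro, and of the 3960 lower genes 267 were not well above background on any non-IRI array. For such genes the fold is a lower bound, written "at least", against the lowest signal called well above background on the dim arrays. A gene that was kept only through the non-IRI arrays had to lie above the culture, so counts over kept members of a list describe these arrays and support nothing further, and the rank of such genes by difference is not set.

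**Figure D1:**
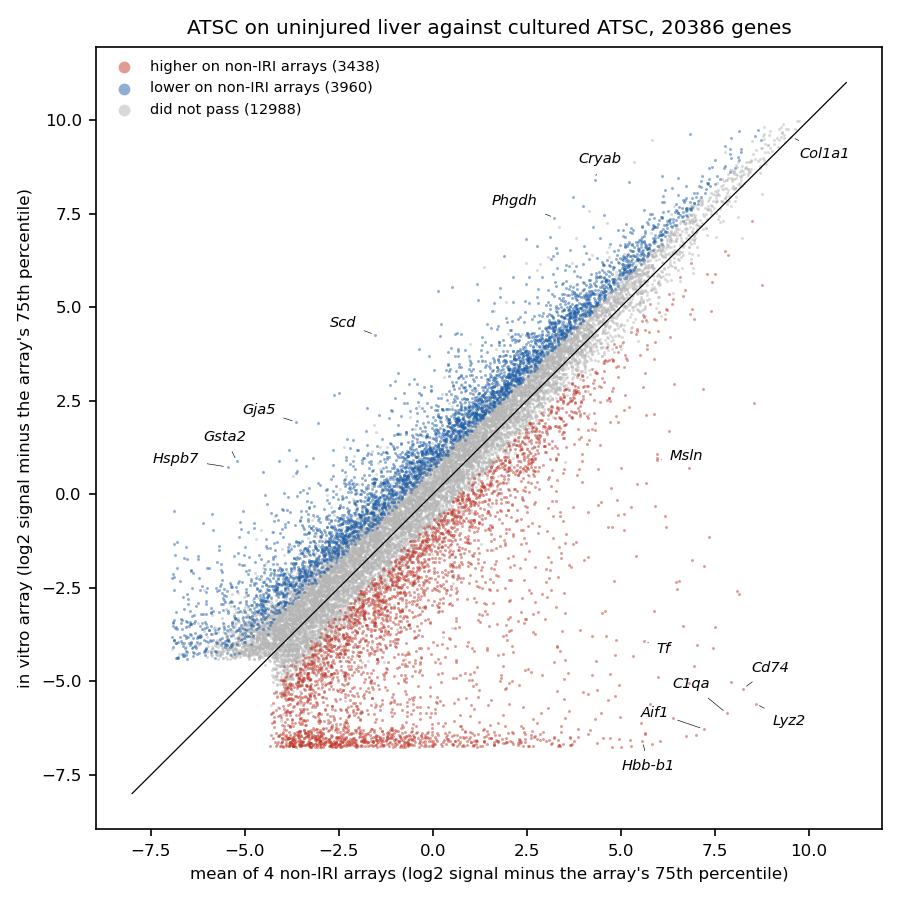
Each point is 1 of 20386 genes, with its mean level on the 4 non-IRI arrays on the x axis and its level on the in vitro array on the y axis (both log2, relative to the array's 75th percentile; the line marks equal levels). Red points (3438) were higher on the non-IRI arrays, blue points (3960) were lower, and grey points (12988) did not pass; many red points lie on the in vitro floor at the bottom, far from the line.

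The in vitro group is 1 array with no replicate, and the test assumes that it varies like the liver arrays. The 4 non-IRI arrays were scanned as 1 slide and the in vitro array on another, together with the 3 IRI arrays, so slide and group cannot be told apart in this comparison. Per the file headers, signal extraction used a grid file on the in vitro and IRI arrays but not on the non-IRI arrays. That step cannot be told apart from slide or group either. The IRI values, measured on the same slide as the culture, are therefore given beside the results. Over the genes tested, which are no independent replicates, pairs of non-IRI arrays had a Spearman's rho of 0.9675 to 0.9836. Each non-IRI array set against the culture had 0.8346 to 0.8503, and each IRI array, on the culture's own slide, 0.8457 to 0.8554. The share of spots well above background ran from 57.16% to 59.69% on the non-IRI arrays and was 53.52% in vitro. With each array scaled to its median in place of its 75th percentile, the median difference of all genes was -0.589, and 30.1% of the called genes were higher, against 46.5% with the 75th percentile. Small negative differences depend on this choice.

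Genes that mark the labelled cell type were detected on all 5 arrays. All 20 kept genes of the mesenchymal stromal list were well above background on each array, among them Pdgfra, Pdgfrb, Thy1, Nt5e, Vim, Prrx1 and Twist1. Which cells carried these transcripts on the non-IRI arrays was not tested. The non-IRI arrays also carried markers of other cells. Of the 21 kept macrophage and Kupffer cell genes, 16 were not well above background in vitro. All 21 were well above it on all 4 non-IRI arrays, which the filter required of those 16. The 5 members well above background on all 5 arrays had a median difference of 8.996. The mean of that list was 4.04, 3.71, 4.53 and 3.60 on non-IRI 1 to 4, against -5.07 in vitro. The hepatocyte list averaged -1.61, -1.28, -0.50 and -0.85, against -3.38 in vitro, and the mesothelial list averaged 2.27, 2.23, 1.58 and 1.84, against -3.60 in vitro. Fewer cells of a type and less RNA per cell cannot be told apart in such bulk samples, and the part that these other cells play in each result below was not tested.

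**Figure D2:**
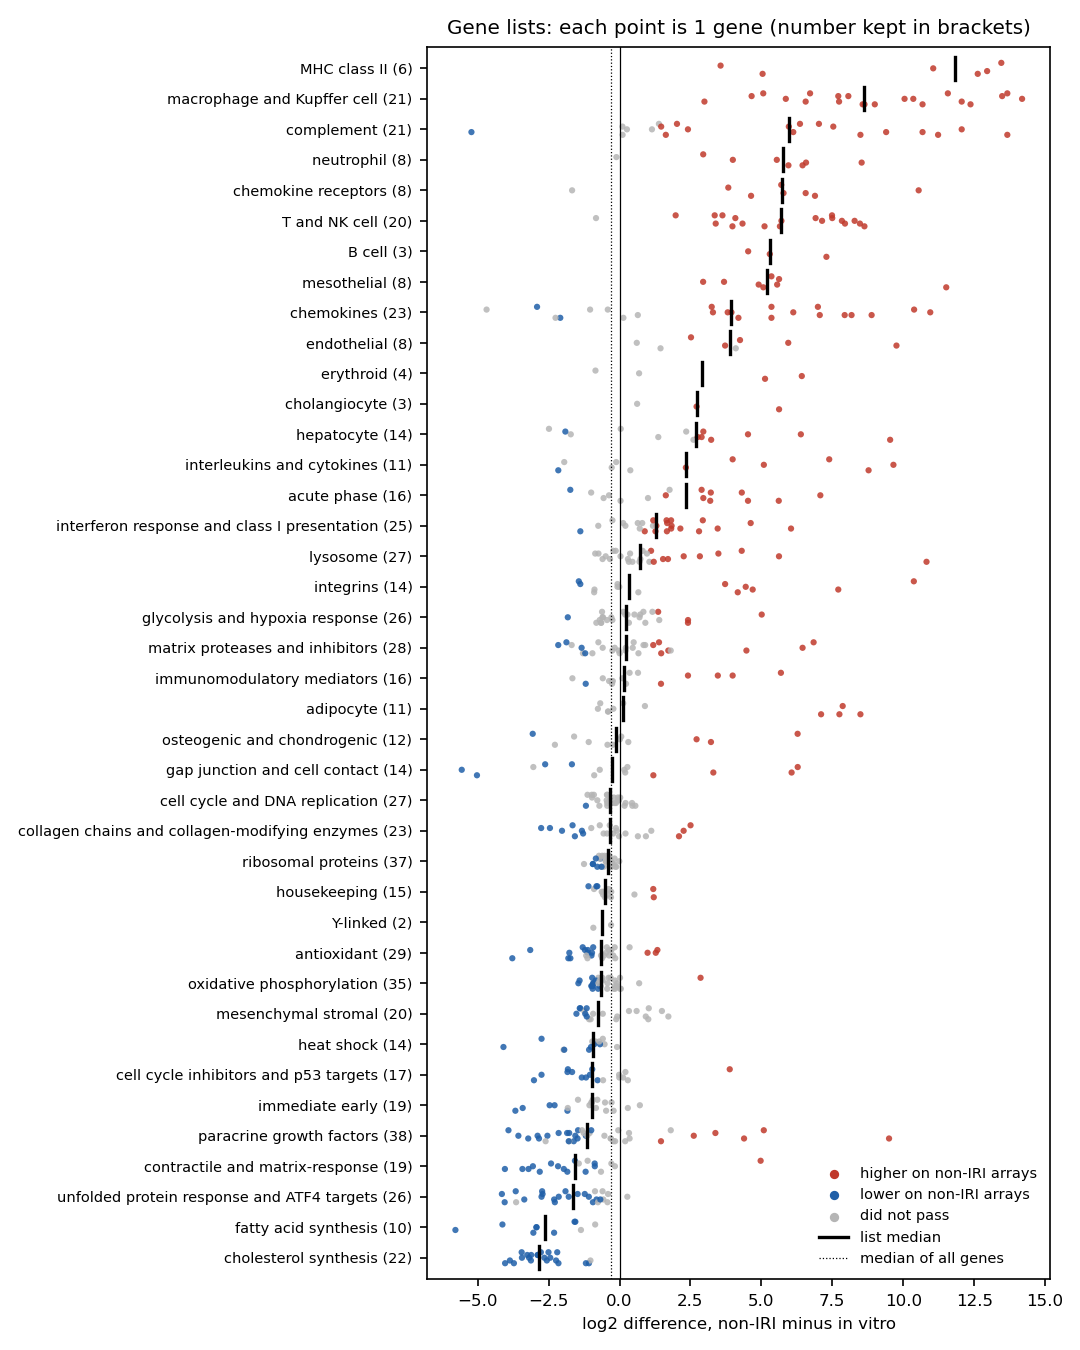
Each row is a gene list, each point the log2 difference (non-IRI minus in vitro, x axis) of 1 kept gene, and the bar the list median; red points were higher and blue points lower on the non-IRI arrays, and the dotted line is the median of all genes. MHC class II and macrophage genes lie to the right with medians of 11.84 and 8.63 (7.308 and 8.996 over the members well above background on all 5 arrays), and fatty acid and cholesterol synthesis to the left with -2.62 and -2.82.

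Macrophage genes were higher on the non-IRI arrays than in culture. All 21 kept members of the macrophage and Kupffer cell list were higher (18 with normexp background correction, an alternative that models signal and background together), with a median difference of 8.63, against 16.9% of all genes. Lyz2, the macrophage lysozyme, had levels of 8.93, 8.39, 8.75 and 8.28 on non-IRI 1 to 4, against -5.60 in vitro. That put it at least 8297-fold higher on the non-IRI arrays (adjusted p = 3.37e-07). The recognition protein of the classical complement pathway, C1q, has 3 chains that macrophages make, and all 3 were higher. C1qa had 7.89, 7.62, 8.35 and 7.40 on non-IRI 1 to 4, against -5.85 in vitro, and was at least 4858-fold higher (adjusted p = 4.86e-07), and C1qc was at least 1078-fold higher (adjusted p = 9.62e-07). C1qb, which was well above background in vitro too, differed by 10.68 ± 0.29 (SE; adjusted p = 5.57e-07). A second kept probe gave a difference of 13.40 for C1qa, against 13.67 with the probe used, and of 9.33 for C1qc, against 12.06. Other members were the calcium-binding microglia and macrophage protein Aif1 (at least 3189-fold, adjusted p = 2.72e-07), and the lysosomal protease Ctss (at least 1822-fold, adjusted p = 6.35e-07). Tyrobp, an adaptor of activating receptors, differed by 11.57 ± 0.27 (SE; adjusted p = 3.37e-07). Clec4f, a lectin restricted to Kupffer cells in rodents, had 1.08, 2.42, 3.17 and 1.04 on non-IRI 1 to 4, against -6.64 in vitro. All 4 non-IRI arrays lay far above the culture for each of these genes, and for Clec4f non-IRI 2 and 3 lay above non-IRI 1 and 4. On IRI 1 to 3, scanned with the culture, C1qa had 7.63, 7.49 and 7.59 and Lyz2 had 8.80, 8.31 and 8.53.

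MHC class II molecules present peptides from engulfed proteins to helper T cells and are found on dendritic cells, macrophages and B cells. All 6 kept members of that list were higher on the non-IRI arrays, with a median difference of 11.84. Of these, 4 were not well above background in vitro, and the 2 that were had a median of 7.31. The alpha chain RT1-Da had 8.20, 7.72, 8.02 and 7.78 on non-IRI 1 to 4, against -5.02 in vitro, and was at least 5269-fold higher (adjusted p = 3.37e-07). Its chaperone, the invariant chain Cd74, had 8.57, 7.79, 8.51 and 8.14 on non-IRI 1 to 4, against -5.20 in vitro, and was at least 6590-fold higher (adjusted p = 6.35e-07). RT1-Bb was at least 1412-fold higher (adjusted p = 2.57e-05), and RT1-Db1, well above background on all 5 arrays, differed by 11.05 ± 0.44 (SE; adjusted p = 2e-06). Ciita, the transcriptional coactivator that switches these genes on, was also among the risen members. On the IRI arrays RT1-Da had 7.91, 7.37 and 7.48.

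Class II promoters are known for an X box and a Y box a short distance before the gene's start. The promoters of RT1-Da, RT1-Db1 and RT1-Bb are printed because these genes were higher on the non-IRI arrays and their windows hold both motifs. Sequences are from RefSeq on the GRCr8 build, as the 250 bases before the start, in lower case with AGNNACNGATG (X box) and GATTGG or its reverse complement (Y box) in capitals.
RT1-Da, chr20:4515165-4515414 (+ strand): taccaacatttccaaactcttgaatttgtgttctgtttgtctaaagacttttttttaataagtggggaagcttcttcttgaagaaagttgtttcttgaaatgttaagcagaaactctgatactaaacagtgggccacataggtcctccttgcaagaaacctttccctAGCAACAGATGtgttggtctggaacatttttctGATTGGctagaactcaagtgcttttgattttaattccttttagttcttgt
RT1-Db1, chr20:4560163-4560412 (- strand): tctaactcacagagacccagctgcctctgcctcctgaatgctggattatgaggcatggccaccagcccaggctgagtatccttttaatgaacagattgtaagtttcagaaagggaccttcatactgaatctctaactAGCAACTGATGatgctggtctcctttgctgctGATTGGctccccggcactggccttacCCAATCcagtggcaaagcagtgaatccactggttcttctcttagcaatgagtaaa
RT1-Bb, chr20:4604119-4604368 (- strand): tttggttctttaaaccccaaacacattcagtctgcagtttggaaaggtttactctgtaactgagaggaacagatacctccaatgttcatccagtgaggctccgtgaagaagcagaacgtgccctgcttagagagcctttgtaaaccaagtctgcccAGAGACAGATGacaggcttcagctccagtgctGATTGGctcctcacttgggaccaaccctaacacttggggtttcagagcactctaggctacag
The X box ended 73 bases before the start in RT1-Da, 103 in RT1-Db1 and 84 in RT1-Bb. The next Y box on the same strand followed after 22, 21 and 21 bases. Searched on both strands in windows reaching from 250 bases before to 50 after the start, AGNNACNGATG was found in 0.94% of 27457 promoters and in 3 of the 6 class II list members with a promoter in the table. A longer spelling, CCNAGNNACNGATG, was found in RT1-Da and RT1-Bb and in 0.0728% of all promoters. GATTGG was found in 5 of the 6 and in 15.3% of all promoters. These are matches of letters, not shown to be bound.

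Complement genes rose beyond C1q. Of 21 kept complement genes, 15 were higher and 1 was lower on the non-IRI arrays, with a median of 5.97. The median was 2.36 with normexp and 1.63 over the 15 members well above background on all 5 arrays, of which 9 were higher. The anaphylatoxin receptor C5ar1 was at least 568-fold higher (adjusted p = 7.39e-07), and Cfd, a protease of the alternative pathway that both adipocytes and macrophages make, differed by 8.49 ± 0.47 (SE; adjusted p = 9.65e-06). The one member that fell was Cd55, which protects a cell's own surface from complement. Cd55 had -3.16, -1.47, -2.30 and -3.10 on non-IRI 1 to 4, against 2.71 in vitro, a difference of -5.22 ± 0.58 (SE; adjusted p = 0.000431). Its non-IRI values lay below the culture by over 4 log2 units each.

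Lymphocyte and granulocyte markers were higher as well. Of the 20 kept T and NK cell genes, 19 were higher, with a median of 5.68, and Gzmb alone did not pass (difference -0.83, adjusted p = 0.233); 15 of the 20 were not well above background in vitro, and 12 were higher with normexp. Cd3g, a chain of the T cell receptor complex, had 2.22, 1.74, 2.31 and 1.41 on non-IRI 1 to 4, against -5.22 in vitro. Klrd1, an NK cell receptor also named CD94, was at least 48.2-fold higher (adjusted p = 2.98e-06), and the pore-forming granule protein Prf1 at least 83.2-fold (adjusted p = 4.84e-06). Of the neutrophil list, 8 of 12 genes on the array were kept, 7 of them through the non-IRI arrays alone. Of those kept, 7 were higher, but 1 with normexp and 0 of the 1 well above background on all 5 arrays. They included Fcnb, a granulocyte ficolin (at least 110-fold, adjusted p = 2.63e-06). All 3 of the B cell genes that were kept were higher, but 7 of the 10 listed, Cd79a and Ms4a1 among them, were not kept. The neutrophil list averaged -0.24, -1.39, -0.11 and -0.33 on non-IRI 1 to 4, so non-IRI 2 was the lowest of the 4, and -5.50 in vitro.

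The signals that draw such cells were split between both sides. Of 23 kept chemokines, 15 were higher and 2 lower on the non-IRI arrays, and 6 and 1 with normexp; 12 were not well above background in vitro. Pf4, a platelet and macrophage chemokine, was at least 686-fold higher (adjusted p = 1.34e-06), Ccl5 of T cells and NK cells at least 276-fold (adjusted p = 3.14e-06), and the interferon-induced Cxcl10 at least 49.1-fold (adjusted p = 2.24e-05). The monocyte attractants Ccl2 and Ccl7, which stromal cells release in culture, went the other way. Ccl2 had 4.92, 5.43, 5.62 and 4.56 on non-IRI 1 to 4, against 7.22 in vitro, a difference of -2.09 ± 0.45 (SE; adjusted p = 0.00917). Ccl7 had 2.65, 3.41, 3.12 and 2.41 on non-IRI 1 to 4, against 5.80 in vitro, a difference of -2.91 ± 0.40 (SE; adjusted p = 0.00128). The neutrophil attractant Cxcl1 had 0.86, 0.96, 3.34 and 0.33 on non-IRI 1 to 4, against 6.06 in vitro, but its spread over the non-IRI arrays was wide and it did not pass (difference -4.69, adjusted p = 0.0618). Cxcl12, the stromal ligand of Cxcr4, differed by -0.41 and did not pass (adjusted p = 0.341). Of 19 chemokine receptors on the array 8 were kept, 6 of them through the non-IRI arrays alone. Of those kept, 7 were higher (4 with normexp), including Ccr2 (at least 22.6-fold, adjusted p = 3.16e-06), carried by monocytes. The scavenger Ackr3, found on stromal cells, was the one that did not pass (difference -1.67, adjusted p = 0.169). Cxcl1 passed without non-IRI 3 or without IRI 2, and Ackr3 without non-IRI 2, both as lower on the non-IRI arrays.

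Cytokines, integrins and lysosomal genes also held members that rose and members that did not. Of 27 interleukins and cytokines on the array 11 were kept, 6 of them through the non-IRI arrays alone, and 6 were higher (3 with normexp) and 1 lower. Il1b and Il18, both activated by inflammasomes, were at least 180-fold (adjusted p = 8.55e-05) and at least 184-fold (adjusted p = 1.06e-06) higher on the non-IRI arrays. The member that fell was Csf1, the macrophage growth factor that stromal cells supply, with 3.50, 3.61, 3.51 and 3.51 on non-IRI 1 to 4, against 5.69 in vitro, a difference of -2.16 ± 0.25 (SE; adjusted p = 0.000464). Of 14 integrins, the 6 that rose pair on leukocytes (Itgb2, Itgad, Itgam, Itga4, Itgal and Itgb7), and the 2 that fell were Itgb1, the common beta chain of matrix receptors, and its partner Itga8. Of the 14, 5 were kept through the non-IRI arrays alone. Of the 8 integrins well above background on all 5 arrays, 1 rose and 2 fell. The share of integrins that rose was 42.9%, against 16.9% of all genes, and the share that fell was 14.3%, against 19.4%. With normexp 2 integrins rose and 0 fell. Itgb2 was at least 317-fold higher (adjusted p = 1.15e-06) and Itgb1 differed by -1.38 ± 0.25 (SE; adjusted p = 0.00485). Of 27 lysosomal genes, 10 were higher (3 with normexp) and 0 lower (1 without non-IRI 2 or non-IRI 3). Laptm5, a lysosomal membrane protein of blood cells, led with a difference of 10.82 ± 0.43 (SE; adjusted p = 2e-06). The macrophage list, whose part in these rises was not tested, averaged 3.60 to 4.53 on the non-IRI arrays, against -5.07 in vitro.

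Genes that mark mesothelium and endothelium were higher on the non-IRI arrays. All 8 kept mesothelial genes were higher (4 with normexp), with a median of 5.21, and 4 of them were not well above background in vitro. Msln, the surface protein mesothelin, had 5.80, 6.28, 5.60 and 6.21 on non-IRI 1 to 4, against 0.90 in vitro, a difference of 5.07 ± 0.32 (SE; adjusted p = 1.99e-05). The keratin Krt18 had 5.05, 5.31, 5.19 and 4.30 on non-IRI 1 to 4, against -6.55 in vitro, at least 673-fold higher (adjusted p = 2.41e-06), and Upk1b, a uroplakin of mesothelium and urothelium, differed by 5.56 ± 0.38 (SE; adjusted p = 3.03e-05). Wt1, a transcription factor of mesothelium, differed by 3.68 ± 0.35 (SE; adjusted p = 0.000193). Msln and Wt1 were well above background in vitro, so culture was low in them rather than without signal. Krt8, Krt18 and Krt19 are also keratins of bile duct cells and, for the first pair, of hepatocytes. Of 12 endothelial genes on the array 8 were kept, 5 of them through the non-IRI arrays alone, and 5 were higher (3 with normexp). Lyve1, a hyaluronan receptor of sinusoidal and lymphatic endothelium, had 3.86, 2.92, 4.49 and 2.32 on non-IRI 1 to 4, against -6.36 in vitro, and was at least 227-fold higher (adjusted p = 4.09e-05). Kdr, the main VEGF receptor, had 3.98, 4.07, 4.10 and 5.39 on non-IRI 1 to 4, against 0.66 in vitro, with non-IRI 4 above the other 3 non-IRI arrays.

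Hepatocyte genes were mixed. Of 30 listed genes, 14 were kept, of which 7 were higher, 1 was lower and 6 did not pass; with normexp 1 was higher and 0 lower. Tf, the iron carrier transferrin, had 5.62, 5.32, 6.52 and 5.01 on non-IRI 1 to 4, against -3.92 in vitro, a difference of 9.54 ± 0.49 (SE; adjusted p = 6.01e-06). Alb, albumin, had -0.59, 0.45, 1.98 and 0.76 on non-IRI 1 to 4, against -2.58 in vitro, and its non-IRI values ran over a wide range. It differed by 3.23 ± 0.80 (SE; adjusted p = 0.0168). Ass1 of the urea cycle was at least 17.4-fold higher (adjusted p = 0.000224). Some other liver plasma proteins had higher values in vitro. Apoh had -5.73, -5.93, -5.21 and -4.88 on non-IRI 1 to 4, against -3.53 in vitro, and was not well above background on any non-IRI array. That put it at least 2.14-fold lower (adjusted p = 0.0314), a call that was lost without non-IRI 1. With normexp the sign of Apoh turned (difference 0.0954) and it did not pass. Ahsg, fetuin-A, had -6.36, -5.05, -3.38 and -3.88 on non-IRI 1 to 4, against -2.18 in vitro, and Apoc3 had -3.41, -3.39, -4.06 and -2.67 on non-IRI 1 to 4, against -1.66 in vitro. Neither passed (adjusted p = 0.0695 for Ahsg and adjusted p = 0.0621 for Apoc3), although Ahsg did without non-IRI 1 or non-IRI 3, and Apoc3 without non-IRI 4 or IRI 3. On the IRI arrays the hepatocyte list averaged 1.09, 1.27 and 0.96, above every non-IRI array, and 9 of the 14 kept members were higher in IRI than in non-IRI, against 2.92% of all genes called in either direction in that comparison. The low hepatocyte signal of the non-IRI arrays thus lay between that of the culture and that of the IRI arrays.

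Of the erythroid list, 4 of 10 were kept and 2 were higher. Hbb, a beta globin, had -1.56, -3.40, -0.37 and -0.43 on non-IRI 1 to 4, against -6.57 in vitro, and was at least 7.96-fold higher (adjusted p = 0.0261), a call lost without non-IRI 4. Alas2, the erythroid enzyme of heme synthesis, was at least 21.3-fold higher (adjusted p = 0.00708). Neither passed with normexp. Ahsp and Klf1 did not pass (adjusted p = 0.702 for Ahsp and adjusted p = 0.334 for Klf1). Outside the list, Hbb-b1, another beta globin, had 5.39, 4.86, 6.01 and 6.05 on non-IRI 1 to 4, against -6.59 in vitro, and was at least 1030-fold higher (adjusted p = 3.42e-06). Globin probes can take up signal from related globin transcripts, so which globin was measured is uncertain. Of 11 kept adipocyte genes, 4 (36.4%) were higher and 0 lower, against 16.9% and 19.4% of all genes. Of the 11, 3 were kept through the non-IRI arrays alone. Over the 8 well above background on all 5 arrays, 1 was higher and the median was -0.31. Those that rose were Cd36, Cfd, Retn and Fabp4. Cd36 and Fabp4 handle fatty acids in adipocytes but also in macrophages and capillary endothelium. Fabp4 had 1.64, 2.74, 0.59 and 3.49 on non-IRI 1 to 4, against -4.99 in vitro, at least 93.5-fold higher (adjusted p = 0.000901). Adipoq, Lep and Plin1, which mark mature fat cells, were not kept on either side. Of the cholangiocyte list, 2 of 3 kept genes were higher, both of them also members of other lists (Krt19 and Spp1), and 0 with normexp.

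**Figure D3:**
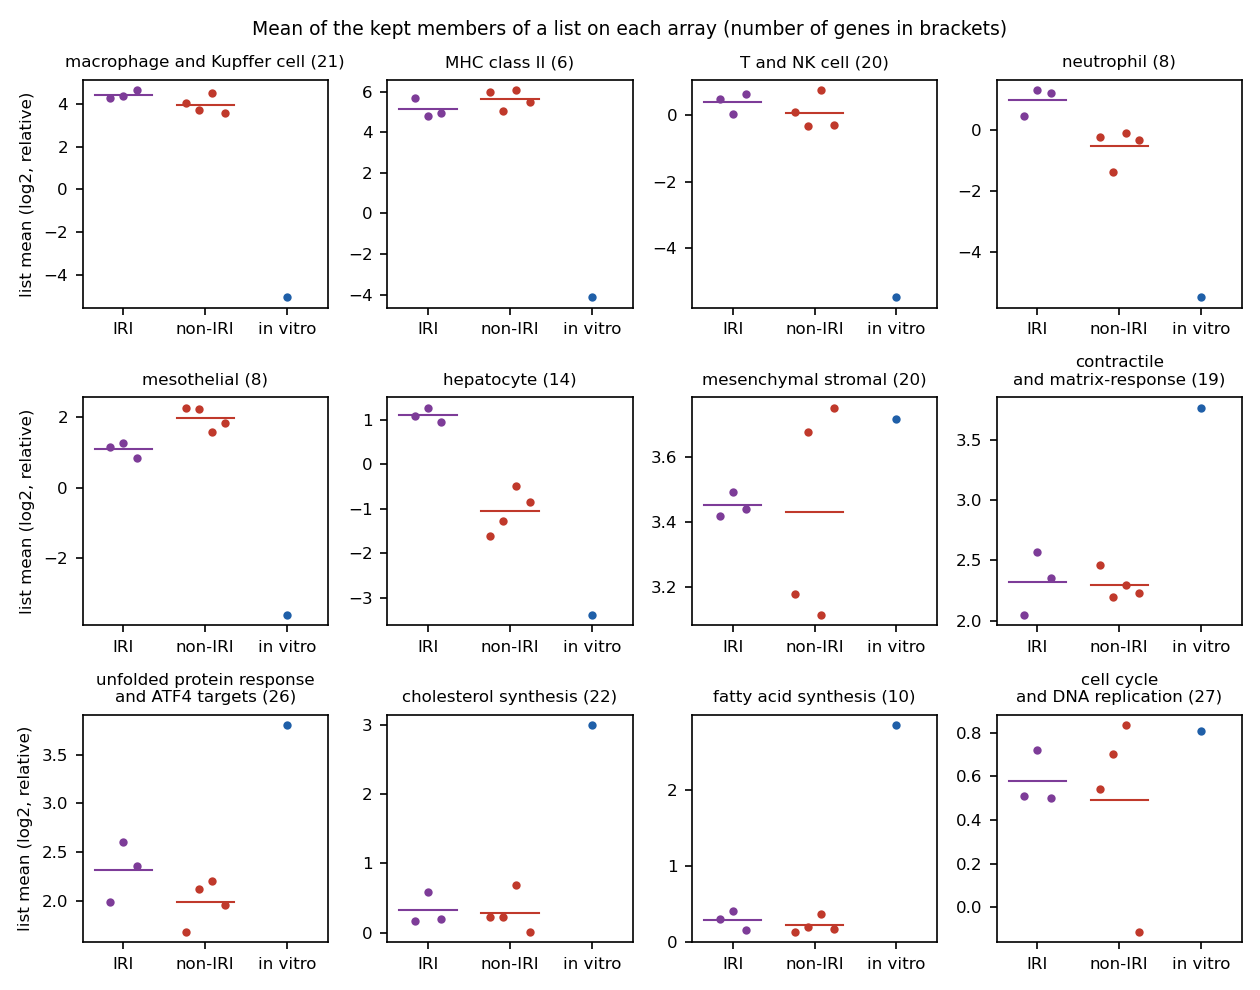
Mean level of the kept genes of 12 lists on each array (log2, relative; y axes differ), with points for the 3 IRI, the 4 non-IRI and the 1 in vitro array, and bars for group means. Leukocyte, mesothelial and hepatocyte lists were low in vitro, and contractile, stress and lipid synthesis lists were high there; the stromal list was 3.11 to 3.75 on the non-IRI arrays and 3.72 in vitro.

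Most stromal genes did not pass. Of 20 kept stromal genes, 0 were higher (1 without non-IRI 2, non-IRI 3 or IRI 1) and 6 lower on the non-IRI arrays (Twist2, Itgb1, Vim, Mfap5, Anpep and Twist1), with a median of -0.76. The share that was lower was 30%, against 19.4% of all genes, and 36.3% of all genes were called in either direction. Vim, the intermediate filament of mesenchymal cells, had 7.68, 7.18, 7.55 and 7.66 on non-IRI 1 to 4, against 8.92 in vitro, a difference of -1.40 ± 0.27 (SE; adjusted p = 0.00633). Twist2, a transcription factor of mesenchyme, had -0.21, -0.14, 0.09 and -0.16 on non-IRI 1 to 4, against 1.11 in vitro, a difference of -1.21 ± 0.22 (SE; adjusted p = 0.00455). By quantile normalization 2 members fell, and with normexp background correction 0. Among surface markers used to define these cells, Thy1 (CD90) differed by -1.07 (adjusted p = 0.0845), Nt5e (CD73) by -0.59 (adjusted p = 0.398), Eng (CD105) by 1.72 (adjusted p = 0.0771) and Cd44 by 0.60 (adjusted p = 0.146, with the sign turned when its probes were averaged). None of these 4 passed, although Eng did as higher without non-IRI 2 or IRI 1, and neither did the PDGF receptors Pdgfra (difference -0.93, adjusted p = 0.0874) and Pdgfrb (difference -1.24, adjusted p = 0.132). The list mean was 3.18, 3.68, 3.11 and 3.75 on non-IRI 1 to 4, with non-IRI 2 and 4 above non-IRI 1 and 3, and 3.72 in vitro.

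The main fibrillar collagens did not pass. Col1a1, a chain of type I collagen, had 9.45, 9.59, 9.36 and 9.74 on non-IRI 1 to 4, against 9.55 in vitro, so the culture value lay inside the range of the non-IRI arrays (difference -0.02, adjusted p = 0.964). Col3a1 had 9.78, 9.57, 9.56 and 9.67 on non-IRI 1 to 4, against 9.75 in vitro and did not pass either (adjusted p = 0.83). Of 23 kept collagen and collagen-modifying genes, 3 (13%) were higher (Col7a1, Col5a3 and Plod2) and 7 (30.4%) lower, against 16.9% and 19.4% of all genes. With normexp 0 were higher and 2 lower. Those that fell were mostly enzymes: Loxl3, a lysyl oxidase that cross-links collagen, had -0.59, -0.12, -0.46 and 0.28 on non-IRI 1 to 4, against 2.23 in vitro, a difference of -2.45 ± 0.33 (SE; adjusted p = 0.0012), and Plod3, a lysyl hydroxylase, differed by -1.57 ± 0.25 (SE; adjusted p = 0.00253). Col7a1, the anchoring fibril collagen, rose by 2.26 ± 0.34 (SE; adjusted p = 0.00182).

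Of 19 kept contractile and matrix-response genes, 13 were lower and 1 was higher, with a median of -1.57. Myh11, the smooth muscle myosin heavy chain, had -0.48, -1.50, -0.86 and -1.21 on non-IRI 1 to 4, against 3.03 in vitro, a difference of -4.04 ± 0.44 (SE; adjusted p = 0.000362). Ccn2, a matrix protein induced by TGF-beta and by mechanical tension, had 5.63, 6.24, 6.08 and 6.40 on non-IRI 1 to 4, against 8.50 in vitro, a difference of -2.41 ± 0.36 (SE; adjusted p = 0.00185). Tpm2, a tropomyosin, differed by -1.57 ± 0.21 (SE; adjusted p = 0.00112), and Lmod1, an actin nucleator of smooth muscle that was well above background on 3 of 4 non-IRI arrays, by -3.05 ± 0.29 (SE; adjusted p = 0.000182). All 4 non-IRI values lay below the culture for each. The exception was Des, desmin, an intermediate filament of muscle and of hepatic stellate cells, with 3.80, 2.78, 3.29 and 2.73 on non-IRI 1 to 4, against -1.82 in vitro, a difference of 4.97 ± 0.42 (SE; adjusted p = 9.25e-05). On IRI 1 to 3 Myh11 had -0.89, -0.04 and -0.21, and Des had 3.57, 4.06 and 3.69. With normexp background correction 2 of the list fell.

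Growth factors, for which these cells are known, were lower more often than higher. Of 38 kept genes, 6 (15.8%) were higher, near the 16.9% of all genes, and 16 (42.1%) lower, against 19.4% of all genes. Igf1, a growth factor that liver and macrophages also make, had 7.33, 7.19, 6.94 and 7.31 on non-IRI 1 to 4, against 2.80 in vitro, a difference of 4.39 ± 0.36 (SE; adjusted p = 8.75e-05). Angptl4, a secreted inhibitor of lipoprotein lipase that responds to hypoxia and fatty acids, was at least 247-fold higher (adjusted p = 8.55e-06). Hgf, the hepatocyte growth factor, had -2.08, -1.89, -2.60 and -2.58 on non-IRI 1 to 4, against -3.75 in vitro, a difference of 1.46 ± 0.34 (SE; adjusted p = 0.013). Fgf2 had -1.01, -1.28, -1.11 and -1.26 on non-IRI 1 to 4, against 0.98 in vitro, a difference of -2.15 ± 0.23 (SE; adjusted p = 0.000368), and the EGF receptor ligand Tgfa had -0.92, -0.71, 0.38 and -1.27 on non-IRI 1 to 4, against 2.94 in vitro, a difference of -3.56 ± 0.59 (SE; adjusted p = 0.0031). Vegfa, the angiogenic factor, did not pass (difference 0.20, adjusted p = 0.643, with the sign turned by median scaling), and neither did Tgfb1 (difference 0.35, adjusted p = 0.322). The factors that fell included ligands of fibroblast (Fgf2, Fgf7, Fgf9, Fgf10, Fgf18), EGF (Tgfa, Hbegf, Ereg) and PDGF (Pdgfa) receptors. With normexp, 2 rose and 4 fell.

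Among immune modulators, 5 of 16 kept genes (31.2%) were higher, against 16.9% of all genes. The galectin Lgals1 was the 1 (6.25%) that was lower, against 19.4% of all genes (2 were lower without non-IRI 3 or IRI 1). With normexp 1 was higher and 0 lower. Of the 16, 2 were kept through the non-IRI arrays alone. Of the 14 well above background on all 5 arrays, 3 were higher and 2 lower. Cd200, a surface ligand that restrains macrophages, had 1.82, 1.92, 1.12 and 1.86 on non-IRI 1 to 4, against -1.78 in vitro, a difference of 3.46 ± 0.39 (SE; adjusted p = 0.00046). Il10, an anti-inflammatory cytokine of macrophages and T cells, was at least 6.91-fold higher (adjusted p = 0.00366), and the prostaglandin E2 receptor Ptger2 at least 11.5-fold (adjusted p = 1.99e-05). Hmox1, the heme-degrading enzyme, did not pass (difference -0.37, adjusted p = 0.547), and neither did Tnfaip6 (TSG-6) or Ptges. Ido1, Nos2 and Ptgs2, enzymes of immune suppression by stromal cells, were not kept. Of 28 kept matrix proteases and inhibitors, 7 (25%) were higher and 4 (14.3%) lower, against 16.9% and 19.4% of all genes. Among those higher were the leukocyte proteases Mmp9 (at least 25.9-fold, adjusted p = 0.000286) and Mmp12 (at least 46.2-fold, adjusted p = 0.0012). The number that fell was 2 without non-IRI 1, IRI 1, IRI 2 or IRI 3, each left out in turn, and with normexp 1 rose and 0 fell. The protease inhibitor Timp1 did not pass (difference -0.25, adjusted p = 0.575).

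Cholesterol synthesis had the largest share of lower genes among the 40 lists. Of the 22 genes of the list, all of which were kept, 21 were lower on the non-IRI arrays and 0 higher, with a median of -2.82, against 19.4% of all genes lower and a median of -0.29. Acat2, an acetyl-CoA acetyltransferase that makes the first building block, had 2.79, 2.83, 3.12 and 2.34 on non-IRI 1 to 4, against 6.63 in vitro, a difference of -3.86 ± 0.31 (SE; adjusted p = 7.29e-05). Further along the pathway, Nsdhl, a sterol dehydrogenase, had -1.07, -1.03, -0.99 and -1.53 on non-IRI 1 to 4, against 2.03 in vitro, a difference of -3.19 ± 0.32 (SE; adjusted p = 0.000248). Dhcr7, the enzyme of the last step, had 0.76, 0.53, 0.78 and 0.71 on non-IRI 1 to 4, against 3.47 in vitro, a difference of -2.77 ± 0.23 (SE; adjusted p = 9.18e-05), and Sc5d, a sterol desaturase, differed by -3.12 ± 0.30 (SE; adjusted p = 0.000207). Genes of early and of late steps fell, and for these 4 the culture lay above every non-IRI array. The member that did not pass was Srebf2, the transcription factor that drives the pathway, at -1.03 (adjusted p = 0.149). The list averaged 0.17, 0.59 and 0.20 on the 3 IRI arrays, 0.22, 0.22, 0.68 and 0.0073 on the 4 non-IRI arrays and 3.00 in culture. With normexp background correction 13 of 22 fell.

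Fatty acid synthesis fell with it: 8 of 10 kept genes were lower (5 with normexp) and 0 higher, with a median of -2.62. Scd, which puts a double bond into fatty acids, had -1.56, -1.51, -1.19 and -1.86 on non-IRI 1 to 4, against 4.26 in vitro, a difference of -5.78 ± 0.40 (SE; adjusted p = 3.03e-05). Fads1, a desaturase of polyunsaturated fatty acids, differed by -2.93 ± 0.26 (SE; adjusted p = 0.000117), the elongase Elovl6 by -3.04 ± 0.28 (SE; adjusted p = 0.000154), and Fasn, fatty acid synthase, by -2.31 ± 0.24 (SE; adjusted p = 0.000299). All of them were well above background on every array of the comparison. Tm7sf2, a sterol reductase outside the list, was also among the 12 lowest measured differences, with 0.39, 0.38, 0.80 and 0.46 on non-IRI 1 to 4, against 5.53 in vitro, a difference of -5.02 ± 0.25 (SE; adjusted p = 4.91e-06).

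**Figure D4:**
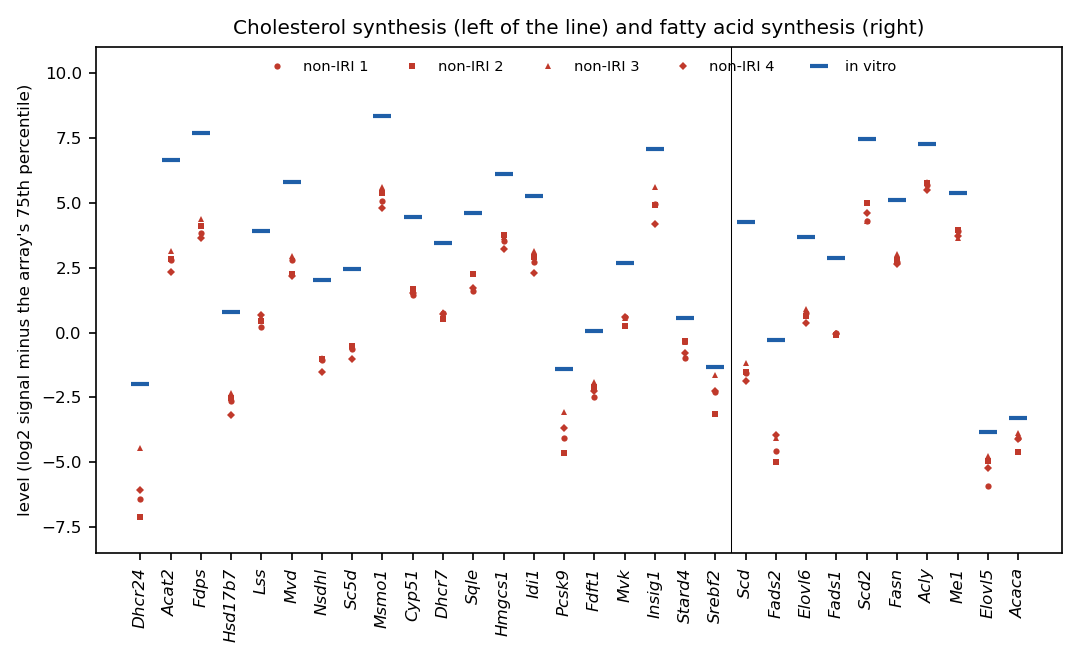
Level of 20 of the 22 kept genes of cholesterol synthesis (left of the line) and of the 10 kept genes of fatty acid synthesis (right) on the 4 non-IRI arrays (red symbols, 1 shape per array) and on the in vitro array (blue bar), on the log2 scale relative to the array's 75th percentile. Every red symbol lies below its blue bar, also for Srebf2, the 1 cholesterol gene that did not pass.

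Promoters of sterol genes are known to combine a sterol regulatory element with a CCAAT box, which GATTGG holds on its opposite strand. Idi1, an isomerase of the pathway, and Nsdhl are printed as members with such a match, with GATTGG or its reverse complement in capitals (RefSeq, GRCr8, 250 bases before the start).
Idi1, chr17:66547525-66547774 (- strand): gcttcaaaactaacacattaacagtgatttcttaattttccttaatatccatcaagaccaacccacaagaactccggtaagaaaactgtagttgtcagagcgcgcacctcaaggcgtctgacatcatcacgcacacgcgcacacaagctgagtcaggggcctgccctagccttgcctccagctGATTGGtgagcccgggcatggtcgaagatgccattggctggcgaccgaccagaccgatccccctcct
Nsdhl, chrX:155817110-155817359 (+ strand): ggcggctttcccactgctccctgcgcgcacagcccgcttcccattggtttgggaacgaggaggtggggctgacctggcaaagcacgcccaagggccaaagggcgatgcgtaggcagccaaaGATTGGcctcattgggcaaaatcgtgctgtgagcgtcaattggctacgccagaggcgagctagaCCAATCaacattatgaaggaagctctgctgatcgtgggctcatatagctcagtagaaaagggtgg
GATTGG was found in 11 of the 15 list members with a promoter in the table, against 15.3% of all 27457 promoters. Of those 11 genes 10 fell, and of all 15 members 14 fell, so the fall did not set apart members with the match. A spelling of the sterol regulatory element, TCACNCCAC, was found in 0 of the 15 and in 1.13% of all promoters, which says only that these letters are not in these windows.

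Genes of amino acid supply and of the unfolded protein response were lower on the non-IRI arrays too. Of 26 kept genes, 18 were lower and 0 higher, with a median of -1.63. ATF4, a factor induced by amino acid shortage and other stress, is known to drive several of them. Phgdh, the first enzyme of serine synthesis, had 3.31, 3.53, 3.26 and 2.84 on non-IRI 1 to 4, against 7.38 in vitro, a difference of -4.15 ± 0.33 (SE; adjusted p = 7.22e-05). Asns, asparagine synthetase, had 1.81, 2.43, 2.12 and 2.16 on non-IRI 1 to 4, against 5.79 in vitro, a difference of -3.66 ± 0.49 (SE; adjusted p = 0.00116), and the alanyl-tRNA synthetase Aars1 differed by -2.71 ± 0.32 (SE; adjusted p = 0.000589). Slc7a11, a cystine carrier, was not well above background on any non-IRI array and was at least 1.26-fold lower (adjusted p = 0.000976). With normexp the sign of Slc7a11 turned (difference 0.00436) and it did not pass. Chac1, which degrades glutathione, differed by -4.05 ± 0.75 (SE; adjusted p = 0.00492), and Atf4 by -1.23 ± 0.22 (SE; adjusted p = 0.00414). Of chaperones of the endoplasmic reticulum, Hspa5 (BiP) differed by -0.94 (adjusted p = 0.0191) and Calr by -1.08 (adjusted p = 0.00855), whereas Canx and Pdia3 did not pass. The list averaged 1.99, 2.61 and 2.36 on the 3 IRI arrays, 1.68, 2.13, 2.21 and 1.96 on the 4 non-IRI arrays and 3.80 in culture. With normexp background correction 7 members fell.

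Aars1 and Chac1 are printed because their promoters hold TTGCATCA, a spelling of the element through which ATF4 acts, in capitals (RefSeq, GRCr8, 250 bases before the start).
Aars1, chr19:55908232-55908481 (+ strand): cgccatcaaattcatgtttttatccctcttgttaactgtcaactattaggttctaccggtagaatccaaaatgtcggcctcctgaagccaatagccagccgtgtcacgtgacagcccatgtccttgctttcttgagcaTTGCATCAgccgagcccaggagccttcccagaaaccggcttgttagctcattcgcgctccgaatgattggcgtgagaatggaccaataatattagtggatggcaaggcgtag
Chac1, chr3:126795881-126796130 (+ strand): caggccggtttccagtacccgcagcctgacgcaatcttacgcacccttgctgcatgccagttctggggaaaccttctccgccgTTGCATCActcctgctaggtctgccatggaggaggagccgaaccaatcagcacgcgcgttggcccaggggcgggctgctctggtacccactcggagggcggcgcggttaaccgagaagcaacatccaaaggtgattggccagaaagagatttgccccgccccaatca
TTGCATCA was found in 3 of the 27 list members with a promoter in the table (Aars1, Chac1 and Herpud1) and in 0.743% of all promoters. All 3 were lower on the non-IRI arrays, as were 17 of all 27. In Aars1 the match ended 105 bases before the start, and in Chac1 160 bases before it.

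Part of the heat shock, antioxidant and immediate early genes was lower. Of 14 heat shock genes, 7 were lower, against 19.4% of all genes, and 0 higher. The small chaperone Cryab had 4.71, 4.32, 4.21 and 4.02 on non-IRI 1 to 4, against 8.41 in vitro, a difference of -4.09 ± 0.29 (SE; adjusted p = 3.41e-05), and Hspb1 (HSP27) had 3.06, 3.46, 3.16 and 3.52 on non-IRI 1 to 4, against 6.05 in vitro, a difference of -2.75 ± 0.24 (SE; adjusted p = 0.000126). Of 29 antioxidant genes, 12 (41.4%) were lower, against 19.4% of all genes. The 3 that were higher (1 without non-IRI 1) were 10.3%, against 16.9% of all genes. Nqo1, a quinone reductase driven by NRF2, had -4.00, -3.46, -4.03 and -3.92 on non-IRI 1 to 4, against -0.08 in vitro, a difference of -3.78 ± 0.35 (SE; adjusted p = 0.000162). Prdx6, a peroxiredoxin, differed by -1.73 ± 0.20 (SE; adjusted p = 0.000542), while the glutathione peroxidase Gpx1 rose by 1.28 ± 0.34 (SE; adjusted p = 0.0213). By quantile normalization 3 heat shock and 6 antioxidant genes fell, and with normexp 2 and 1. Of 19 immediate early genes, which respond fast to serum and to handling of tissue, 5 (26.3%) were lower and 0 higher, and 3 were lower with normexp and 10 with median scaling. Fos had 1.63, -0.03, 1.26 and -0.31 on non-IRI 1 to 4, against 4.31 in vitro, a difference of -3.67 ± 0.69 (SE; adjusted p = 0.00543), and the phosphatase Dusp1 had 0.73, 0.24, 0.86 and -0.25 on non-IRI 1 to 4, against 3.81 in vitro, a difference of -3.41 ± 0.61 (SE; adjusted p = 0.00428). Klf4 differed by -2.46 ± 0.31 (SE; adjusted p = 0.000746) and Myc by -1.84 ± 0.31 (SE; adjusted p = 0.00312). The culture lay above every non-IRI array for these 4 genes.

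Inhibitors of the cell cycle and p53 targets fell in 10 of 17 cases and rose in 1. With normexp 1 fell and 0 rose, and 4 fell when tested against a fold of 1.5. Bax, which opens the mitochondrial membrane in apoptosis, had 1.55, 1.78, 1.73 and 1.80 on non-IRI 1 to 4, against 3.39 in vitro, a difference of -1.67 ± 0.24 (SE; adjusted p = 0.00161). The stress gene Gadd45a had 1.82, 2.73, 1.19 and 2.76 on non-IRI 1 to 4, against 5.14 in vitro, a difference of -3.02 ± 0.61 (SE; adjusted p = 0.0073), the leucine sensor Sesn2 differed by -2.75 ± 0.50 (SE; adjusted p = 0.00448), and Cdkn2b, which encodes p15, by -1.82 ± 0.34 (SE; adjusted p = 0.00522). Perp, a p53 target that is also a junction protein of epithelia, was the one that rose, at least 4.25-fold (adjusted p = 0.000186). Of genes of cell division few passed: of 27 kept genes, 0 rose and 1 fell, against 36.3% of all genes called, with a median of -0.33. Cdk1, the mitotic kinase, had 4.59, 4.93, 4.75 and 4.23 on non-IRI 1 to 4, against 4.98 in vitro and did not pass (adjusted p = 0.374). The gene that fell was Cdc20, which starts chromosome separation, with 2.23, 2.13, 2.38 and 1.31 on non-IRI 1 to 4, against 3.20 in vitro, a difference of -1.18 ± 0.39 (SE; adjusted p = 0.0445); the call was lost without non-IRI 1, non-IRI 2 or any 1 of the 3 IRI arrays, and without non-IRI 3 the count of lower genes was 2. Non-IRI 4 was the lowest non-IRI array in Cdk1 and in the list mean, which was 0.54, 0.70, 0.83 and -0.11 on non-IRI 1 to 4, against 0.81 in vitro.

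Of 26 genes of glycolysis and the hypoxia response, 4 (15.4%) were higher, near the 16.9% of all genes, and 1 lower. With normexp 1 was higher and 0 lower. Egln3, an oxygen sensor that hypoxia induces, had 2.12, 3.88, 2.12 and 3.94 on non-IRI 1 to 4, against -2.00 in vitro, a difference of 5.01 ± 0.95 (SE; adjusted p = 0.00549). Ndrg1, also induced by hypoxia, differed by 2.41 ± 0.62 (SE; adjusted p = 0.0184), and the lactate exporter Slc16a3 by 1.36 ± 0.24 (SE; adjusted p = 0.00405). The vasodilator peptide Adm, another hypoxia target, was the one that was lower (difference -1.82, adjusted p = 0.0453), a call lost without non-IRI 3, non-IRI 4, IRI 2 or IRI 3, while 2 genes were lower without IRI 1. No enzyme of glycolysis passed, among them Ldha (difference -0.60, adjusted p = 0.36). With median scaling the median of this list was -0.06, against 0.24 with the 75th percentile. Of 35 genes of oxidative phosphorylation, 14 (40%) were lower, against 19.4% of all genes, and 1, Cox7c, was higher, with a median of -0.67. Cox7c was kept through the non-IRI arrays alone. Of the 34 members well above background on all 5 arrays, 0 were higher. Ndufv1, a subunit of complex I, differed by -1.45 ± 0.30 (SE; adjusted p = 0.00771). The count of lower genes was 6 without non-IRI 1, 7 without non-IRI 4 or IRI 2, 8 without IRI 3, 2 by quantile normalization and 0 with normexp. Of 37 ribosomal protein genes, 6 (16.2%) were lower and 0 higher, against 19.4% and 16.9% of all genes. Their median was -0.39, near the -0.29 of all genes. Leaving out non-IRI 1 gave 0 lower ribosomal genes, leaving out non-IRI 4 gave 1, and leaving out either non-IRI 3 or IRI 3 gave 2. Quantile normalization gave 0 and median scaling 14. The genes most used as references, Actb (difference -0.52, adjusted p = 0.116) and Gapdh (difference -0.58, adjusted p = 0.148), did not pass.

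Interferon-induced genes were higher. Of 25 kept genes of the interferon response and class I presentation, 16 were higher and 1, Ifit2, was lower (2 were without non-IRI 2), with a median of 1.30. Oas1a, which makes the signal for RNA decay in infected cells, had 2.32, 2.64, 3.14 and 2.78 on non-IRI 1 to 4, against -0.21 in vitro, a difference of 2.93 ± 0.32 (SE; adjusted p = 0.000349). The ubiquitin-like Isg15 had 2.38, 3.47, 3.39 and 3.90 on non-IRI 1 to 4, against -0.17 in vitro, a difference of 3.46 ± 0.48 (SE; adjusted p = 0.00137), and Mx1, an antiviral GTPase, was at least 6.21-fold higher (adjusted p = 6.7e-05). Irf9, a subunit of the factor that carries the interferon signal, differed by 1.83 ± 0.26 (SE; adjusted p = 0.00145). Ifit2 had 0.73, 1.28, 0.97 and 1.54 on non-IRI 1 to 4, against 2.51 in vitro, a difference of -1.38 ± 0.34 (SE; adjusted p = 0.0151). With normexp background correction 1 member rose. The macrophage and lymphocyte lists rose on the same arrays, and their part in these rises was not tested.

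The promoter of Oas1a is printed as an example that holds TTTCNNTTTC, the core of the interferon-stimulated response element, here on the opposite strand as overlapping matches in capitals (RefSeq, GRCr8, 250 bases before the start).
Oas1a, chr12:41330216-41330465 (+ strand): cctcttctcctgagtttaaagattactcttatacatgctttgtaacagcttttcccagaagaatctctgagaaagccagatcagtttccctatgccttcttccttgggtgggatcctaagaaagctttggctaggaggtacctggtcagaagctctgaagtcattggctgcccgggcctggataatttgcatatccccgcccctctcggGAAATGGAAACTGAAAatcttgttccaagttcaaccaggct
TTTCNNTTTC was found in 16 of the 25 list members with a promoter in the table, against 3.77% of all promoters. Of the 14 risen genes with a promoter 10 held it, and of the 7 that did not pass 5 did.

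Acute phase genes rose in 9 of 16 cases (56.2%) and fell in 1 (6.25%), against 16.9% and 19.4% of all genes. With normexp 2 rose and 0 fell. Of the 16, 5 were kept through the non-IRI arrays alone, and of the 11 well above background on all 5 arrays 5 rose. Between the liver groups, 6 of the 16 were higher in IRI than in non-IRI, against 2.92% of all genes called in either direction. A2m, a protease trap that the rat liver releases in inflammation, had 6.37, 6.08, 6.07 and 6.30 on non-IRI 1 to 4, against -0.87 in vitro, a difference of 7.08 ± 0.40 (SE; adjusted p = 1e-05). Lcn2, an iron-siderophore binder of neutrophils and injured epithelium, was at least 48.9-fold higher (adjusted p = 2.39e-05), and the interleukin-6 receptor Il6r differed by 3.22 ± 0.32 (SE; adjusted p = 0.000248). Nfil3, a transcription factor, was the one that was lower (difference -1.74, adjusted p = 0.0161).

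Among genes of bone and cartilage, 3 of 12 (25%) rose and 1 (8.33%) fell, against 16.9% higher and 19.4% lower of all genes. With normexp 0 rose and 0 fell. Prg4, the lubricant proteoglycan of joint and serosal surfaces, had 3.44, 3.67, 4.38 and 1.59 on non-IRI 1 to 4, against -3.00 in vitro, a difference of 6.28 ± 0.94 (SE; adjusted p = 0.00193). Fmod, a collagen-binding proteoglycan, differed by 3.22 ± 0.67 (SE; adjusted p = 0.00811), and Spp1, osteopontin, by 2.72 ± 0.64 (SE; adjusted p = 0.0138). Msx2, a homeobox gene of bone formation, fell, with -4.05, -2.99, -3.34 and -3.65 on non-IRI 1 to 4, against -0.45 in vitro, a difference of -3.06 ± 0.44 (SE; adjusted p = 0.00152). Runx2, Sp7 and Sox9, the master regulators of bone and cartilage, were not kept. In the list of junction proteins, 4 of 14 rose and 4 fell (28.6% each), against 16.9% higher and 19.4% lower of all genes. With normexp 1 rose and 1 fell. Of the 14, 3 were kept through the non-IRI arrays alone, and of the 8 well above background on all 5 arrays 1 rose and 2 fell. The epithelial proteins Ocln (at least 16.9-fold, adjusted p = 2.05e-05) and Cdh1 (at least 13.6-fold, adjusted p = 3.14e-05) were higher. The connexin Gja5 had -5.39, -1.56, -5.42 and -2.17 on non-IRI 1 to 4, against 1.93 in vitro, was well above background on 2 of 4 non-IRI arrays and differed by -5.56 ± 1.48 (SE; adjusted p = 0.0215). Cntn2, a contactin of neurons, had -3.25, -3.74, -4.06 and -4.30 on non-IRI 1 to 4, against 1.19 in vitro, was well above background on 3 of 4 and differed by -5.02 ± 0.52 (SE; adjusted p = 0.000281).

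The 12 called genes with a symbol whose measured differences were lowest were a mixed set. Those not above background on the non-IRI arrays have only a bound, so their order is not set and a gene outside the 12 may have fallen further. Or4n5, an olfactory receptor gene, had -6.66, -7.14, -6.89 and -6.83 on non-IRI 1 to 4, against -0.46 in vitro and was at least 17.9-fold lower (adjusted p = 9.44e-06). Hspb7, a small heat shock protein of muscle, had -4.70, -6.06, -5.48 and -5.61 on non-IRI 1 to 4, against 0.73 in vitro and was at least 40.8-fold lower (adjusted p = 0.000218). Gsta2, a glutathione transferase, had -5.29, -5.62, -5.32 and -4.63 on non-IRI 1 to 4, against 0.87 in vitro and was at least 45.1-fold lower (adjusted p = 1.97e-05). None of the 3 was well above background on any non-IRI array. The muscle myosin Myh2, likewise, was at least 7.54-fold lower (adjusted p = 5.01e-05). Sncg, gamma-synuclein, had -0.96, 2.07, -0.52 and -0.0097 on non-IRI 1 to 4, against 5.42 in vitro, a difference of -5.27 ± 1.02 (SE; adjusted p = 0.00598), and Gdf10, a TGF-beta family ligand, had -5.33, -2.95, -3.69 and -4.37 on non-IRI 1 to 4, against 0.87 in vitro, a difference of -4.96 ± 1.01 (SE; adjusted p = 0.00761). Scd, Gja5, Cd55, Cntn2 and Tm7sf2 were also among the 12. The 12 highest measured differences, likewise without a set order, were those of Lyz2, C1qa, Aif1, Cd74, RT1-Da, RT1-Bb, Clec10a, Ctss, Hbb-b1, C1qc, RT1-Db2 and Igsf7 l1. All but Hbb-b1 and Igsf7 l1 are genes of macrophages or antigen presentation, and none was well above background in vitro. Clec10a, a galactose lectin of macrophages and dendritic cells, was at least 1220-fold higher (adjusted p = 2e-06), RT1-Db2 at least 841-fold (adjusted p = 2.47e-06) and Igsf7 l1 at least 2429-fold (adjusted p = 8.89e-07).

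**Figure D5:**
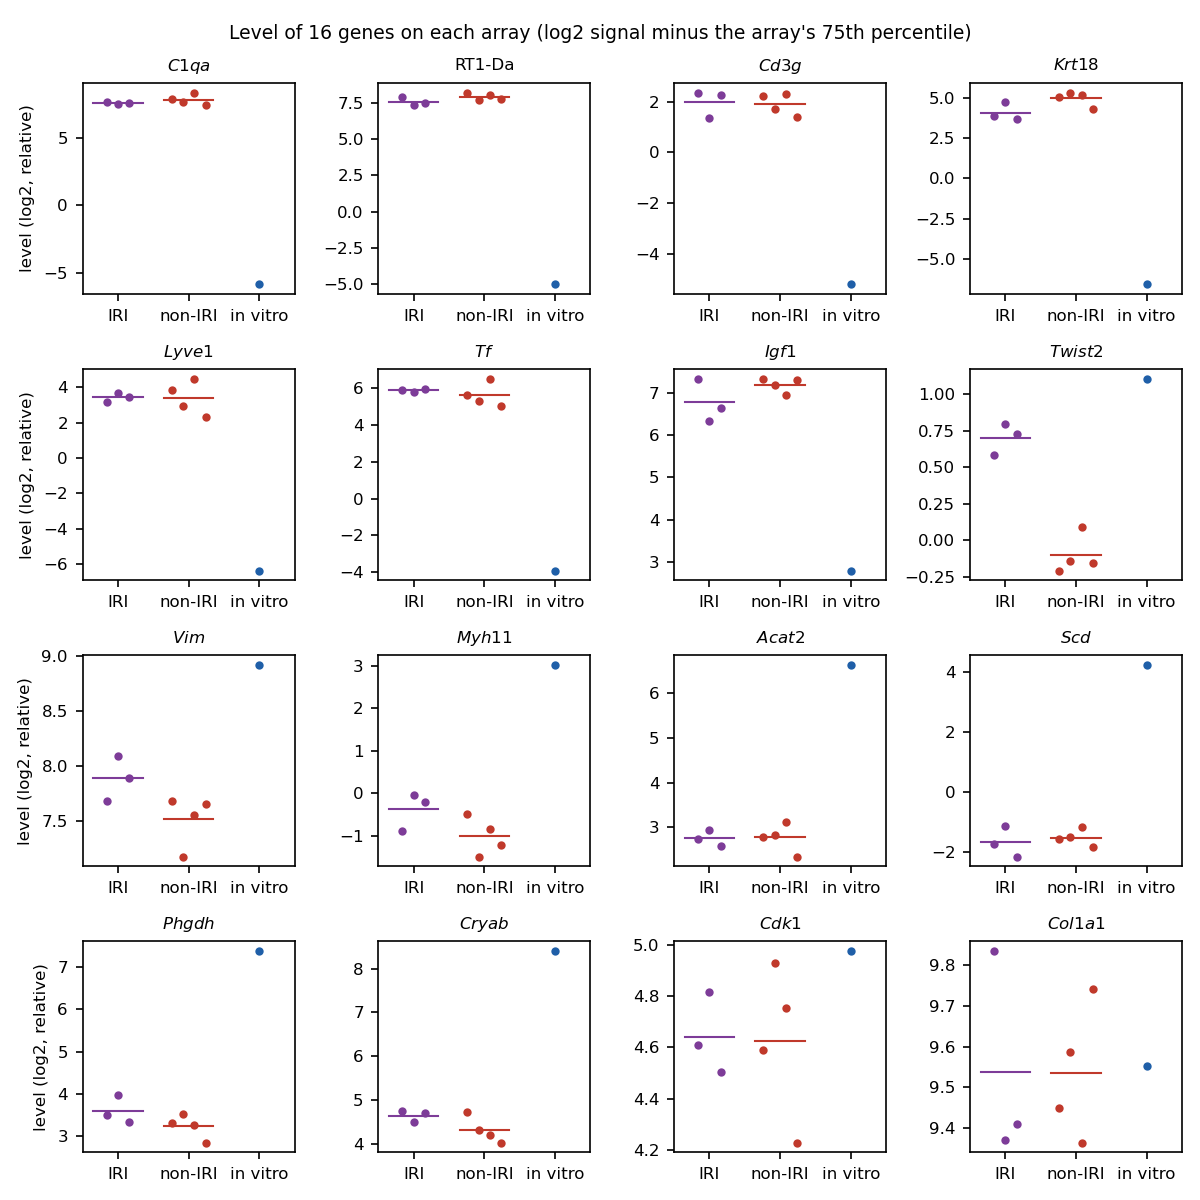
Level of 16 genes (log2, relative to the array's 75th percentile; y axes differ) on the 3 IRI, the 4 non-IRI and the 1 in vitro array, with bars for group means. The in vitro point stands apart from all liver arrays for every gene shown except Cdk1, where it was 4.98 against a highest non-IRI value of 4.93, and Col1a1, where it lay among them.

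A few probes differed widely among the 4 non-IRI arrays. Nme2, a nucleoside diphosphate kinase, had 8.64, 8.71, 8.73 and -2.73 on non-IRI 1 to 4, against 9.47 in vitro, so non-IRI 4 alone was low. On that spot the median signal was 74 intensity units, and on the other 7 arrays it was 78812.5 to 128809, while its local background of 28 was near the array's median background of 23. Nsa2, a ribosome assembly factor, was low on non-IRI 4 in the same way, with 6.25, 6.58, 6.38 and -3.97 on non-IRI 1 to 4, against 6.85 in vitro. Crip1, a zinc-binding protein, had -1.18, 6.42, 6.14 and 5.71 on non-IRI 1 to 4, against 5.01 in vitro, and Qpctl, a glutaminyl cyclase, had -4.19, 2.58, 2.60 and 2.10 on non-IRI 1 to 4, against 2.95 in vitro, both low on non-IRI 1 alone. The local background of those spots was 56 and 51, against an array median of 30. Ubn1, a histone chaperone subunit, had -3.43, 6.01 and 5.76 on non-IRI 1, 2 and 4, with its spot on non-IRI 3 left out as an outlier, and 5.99 in vitro. None of the 5 passed the test, and the Crip1 difference was 1.08 without non-IRI 1, against -0.74 with it.

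Both liver groups share the single culture array, so their differences from it are not independent and are given side by side. The median difference from culture was 9.44 for IRI and 8.63 for non-IRI in the macrophage list. It was 11.02 for IRI and 11.84 for non-IRI in the class II list, and 4.70 for IRI and 2.68 for non-IRI in the hepatocyte list. In cholesterol synthesis it was -2.89 for IRI and -2.82 for non-IRI, and in the contractile list -1.77 for IRI and -1.57 for non-IRI. The IRI arrays shared the culture's slide, and the non-IRI arrays did not. Between the liver groups, 595 genes (2.92%) differed, 48 higher and 547 lower in IRI. Among named genes outside the hepatocyte list such differences included those of Gsta2, which had -1.65, -2.03 and -2.29 on the 3 IRI arrays, -5.29, -5.62, -5.32 and -4.63 on the 4 non-IRI arrays and 0.87 in culture, and of Cox7c, a subunit of cytochrome c oxidase, which had -5.91, -6.37 and -6.51 on the 3 IRI arrays, -2.83, -2.39, -2.89 and -3.38 on the 4 non-IRI arrays and -5.73 in culture. Cox7c was well above background on all 4 non-IRI arrays and on none of the 4 arrays of the other slide, so for it the slide moved with the difference. Twist2 had 0.58, 0.79 and 0.72 on IRI 1 to 3, between the non-IRI arrays and the culture.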

How the data were processed

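The series holds 8 Agilent rat arrays with 1 dye (Cy3), of which the labels put 3 in IRI, 4 in non-IRI and 1 in in vitro. The deposited intensity of a spot is the processed signal after background subtraction by Agilent Feature Extraction, 11.0.1.1 per the file headers and 9.1 per the submitters' processing notes. The authors' table of log2 values, used as an alternative, correlated with those signals at 0.999766 or above on each array. Control spots and 45 to 117 outlier spots an array were left out, and no spot was saturated. Signals were scaled to the 75th percentile of the array (155.7 to 291.3 units), and log2 was taken. For a gene with several kept probes, the probe with the highest mean was used; 20 genes with missing values were dropped, and 47 were fitted without a missing array. Symbols came from RefSeq by accession, for 17541 of 41012 probes. limma (3.58.1, R 4.3.3) fitted all 8 arrays with 3 group means and was tested on simulated data. Feature Extraction's mean signal was not used, so normexp used the median signal and background. Named genes were the 12 highest and 12 lowest measured differences, 4 kept members a list with the smallest p, 5 with the widest non-IRI range, Actb and Gapdh, members that define a cell type or were the one called, and others chosen after their values were seen; a few genes are not reported here. Members and lists were chosen with earlier results of these data known. Promoters were matched for 670 of 898 list symbols, and 6 motif spellings were searched. Alternatives changed background correction, scaling, filter, probes, arrays and variance model.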

Additional observations from a re-analysis of the deposited data

Results flagged for a closer look

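Of 216 genes checked for an array far from the other 3 non-IRI arrays (a gap larger than chance gives in about 1 of 20 groups), 12 had one. That share is near 1 of 20. Nme2, Nsa2, Crip1 and Qpctl were among the 216 because of their wide range over the non-IRI arrays, so a flag was likely for them from the start. Nme2 had a level of -2.729 on non-IRI 4, against 8.64 to 8.73 on the other 3, and Nsa2 had -3.965 on non-IRI 4, against 6.25 to 6.58. Crip1 had -1.184 on non-IRI 1, against 5.71 to 6.42, and Qpctl had -4.193 on non-IRI 1. On non-IRI 1 the local background was 56 units at the Crip1 spot and 51 at the Qpctl spot, against 30 on the array as a whole, and its part in those values was not tested. Smaller gaps were those of Kdr (5.386 on non-IRI 4), Retn (2.441 on non-IRI 3), Nsdhl (-1.534 on non-IRI 4), Ccr1 (0.458 on non-IRI 3), Csf1 (3.609 on non-IRI 2), Cd200 (1.119 on non-IRI 3), Hspb8 (-0.1616 on non-IRI 1) and Vegfa (1.987 on non-IRI 1).

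Among named genes, 11 differed between IRI and non-IRI (limma, IRI minus non-IRI, in a comparison in which slide and group cannot be told apart either). Higher in IRI were Ahsg (4.145), Alb (3.207), Apoc3 (2.363) and Apoh (2.988), all plasma proteins of hepatocytes, and Gsta2 (3.223), Lcn2 (1.747), Loxl4 (0.9003) and Twist2 (0.8035). Lower in IRI were Cox7c (-3.392), Perp (-2.271) and Cd200 (-1.371). The hepatocyte list averaged 1.09, 1.27 and 0.96 on the IRI arrays, against -1.61, -1.28, -0.50 and -0.85 on the non-IRI arrays, and its part in these differences was not tested.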

How the results depend on the processing

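Counts of genes higher and lower were within 1.5 times of 3438 and 3960 under quantile normalization, no filter on dim probes, the mean of all probes, only the 5 arrays compared, a trended robust eBayes, array weights and the authors' table. Normexp background correction gave 457 higher and 226 lower, and, chosen after seeing the data, normexp with bright local backgrounds set to the array median gave 1910 higher. Median scaling gave 6387 lower, a requirement of signal above background on all 5 arrays (fewer genes tested) 2071 higher, and a fold limit of 1.5 (treat) 2140 higher and 1166 lower. Leaving out 1 liver array gave 3072 to 3540 higher and 3013 to 4259 lower. The cause was not tested where it is not named. Whether replicate numbers pair the samples is not settled. Same-numbered IRI and non-IRI arrays correlated in their deviations from the group means at 0.202, 0.175 and 0.084. IRI 1 and IRI 2 each correlated best with their own number, and IRI 3 correlated better with non-IRI 2 (0.115). The replicate block gave 2400 lower genes. The share of called genes that were higher was 46.5%, against 66.9% with normexp, 30.1% with median scaling, 36.6% above background on all 5 arrays and 64.7% with treat, and the median of all genes was 0.0244 with normexp.

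Among 216 genes, signs turned under normexp for Klf1 (0.136), Mmp17 (0.130), Slc7a11 (0.00436), Apoh (0.0954) and Vegfa (-0.0441), and with bright backgrounds reset for Prom1 (-0.0177). Median scaling turned Vegfa (-0.102). Quantile normalization turned Col1a1 (0.478), Col3a1 (0.254), Cdk1 (0.0667), Cxcl12 (0.0164), Timp1 (0.197) and Hmox1 (0.0557). The mean of probes turned Ccne1 (0.612), Col1a1 (0.0673), Cd44 (-0.223) and Vegfa (-0.354), and the replicate block Col1a1 (0.0531), Col3a1 (0.247) and Vegfa (-0.176). Leaving out 1 array moved Crip1 over -1.45 to 1.08 and Col1a1 over -0.0864 to 0.0397. Of the 216, 85 kept their direction but lost their call with normexp. For 126 neither the direction nor whether they passed changed, which includes genes that passed in neither setting.

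The culture is 1 array on another slide, so neither its own spread nor a slide effect was measured, and a slide block could not be fitted. Genes near background in either group have only a bound. The arrays' number limits the precision.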
